A study of Mus musculus with 6 samples.

Results

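The MYC, MAX and MXD network is a set of dimerizing transcription factors that compete for the same partners and the same DNA sites. It was followed here through 10 transcripts (*Myc*, *Max*, *Mxd1*, *Mxd3*, *Mxd4*, *Mxi1*, *Mnt*, *Mlx*, *Mlxip* and *Mga*) in activated group 2 innate lymphoid cells (aILC2s) treated with melatonin or with vehicle. The members were taken from a list of names by a rule that uses no measured value, although they were chosen with earlier results of these data known. All 10 were among the 16381 genes with a deposited value.

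The study examined how melatonin acts on ILC2s, the tissue-resident lymphocytes that release IL-5 and IL-13 in allergic airways disease. WT BALB/c mice, stated to be females of 6 to 8 weeks, received IL-33 into the airways at 0.5 µg per day for 3 days, and lung ILC2s were sorted as lineage-negative, ST2+ and CD127+ cells to a purity above 95%. Both groups therefore came from IL-33-challenged animals. BALB/c mice have an inherited defect in making melatonin of their own. Sorted cells were then kept in culture for 24 h with melatonin at 250 µM or with DMSO, its solvent, referred to as vehicle, and RNA from 3 samples per group was sequenced. The labels and methods do not say whether the samples of a group came from separate mice or cultures. The p-values therefore measure the spread between these samples, which may be partly technical. By the sex-linked transcripts given below, melatonin replicate 1 did not come from the same mice as melatonin replicates 2 and 3.

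Between 17056267 and 20511700 estimated counts were recovered per sample, and the group means of the members lay between 158 and 2649 normalized counts, the estimated counts divided by a size factor for each sample. Of 14 ILC2 markers, all were listed, and their summed level was 220363 to 234461 normalized counts in vehicle and 152965 to 171747 in melatonin. Most of the drop in the sum lay in *Il5* (mean 83072 to 49950) and *Il2ra* (51596 to 31066). Of the 14, 8 fell, *Il1rl1* and *Rora* rose by 0.63 and 0.64 on the log2 scale, and *Gata3* (0.07), *Icos*, *Ptprc* and *Il17rb* did not pass. The summed markers of most other cell types were lower in melatonin. The 6 NK cell and ILC1 markers, of which *Gzma* held most, went from 6020.3 to 7285 down to between 85.0 and 214 normalized counts. The 9 listed of 10 myeloid markers went from a range of 1462 to 1721 to one of 366 to 849, the 4 listed of 8 T cell markers from 1209.7 to 1349 to between 458 and 870.3, the 2 listed of 5 B cell markers from 289 to 322 to between 131 and 162, and the 1 listed of 7 stromal and endothelial markers from 1001 to 1066 to between 310.02 and 416. The 6 listed of 7 epithelial markers lay at 948 to 2347 in vehicle and 1043 to 1259.7 in melatonin, a sum in which *Epcam* rose (log2 fold change 0.72, adjusted p = 0.00107) and the other 5 fell. The 3 listed of 5 mast cell and basophil markers did not exceed 49.3 in any sample. The defining genes *Cd4*, *Cd8a*, *Ms4a1*, *Fcer1a*, *Col1a1* and *Cdh5* were not listed. *Xist* reached 579 and 1092 in melatonin samples 2 and 3 but at most 13.6 in the other samples, whereas the Y-linked *Ddx3y* was at 746 to 1071 in vehicle and melatonin replicate 1 and at 0 in melatonin replicates 2 and 3. All 10 members are autosomal. The Y-linked transcripts in vehicle and in melatonin replicate 1 conflict with the statement that the mice were females. Donor sex was thus partly aligned with treatment. The part of other cells and of the sex of the donors in the results was not tested. Library numbers in the labels run from 20 to 22 for melatonin and from 32 to 34 for vehicle, and any batch tied to them cannot be told apart from treatment.

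MYC is an unstable protein that activates transcription only as a dimer with MAX, at E-box sites, and drives ribosome production, nucleotide synthesis and cell growth. The MXD proteins, MXI1 and MNT pair with MAX at the same sites, recruit SIN3 and histone deacetylases and repress the genes that MYC activates. MLX pairs with some of the MXD proteins and MNT and with the glucose-sensing factors MLXIP (also called MondoA) and MLXIPL, while MGA brings MAX into a Polycomb complex. In lymphocytes MYC is known to rise on activation and to support growth and metabolism, and MXD proteins to rise as cells leave the cell cycle.

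Melatonin-treated aILC2s held less *Myc* and *Max* and more *Mxd1*, *Mxd4* and *Mxi1* of the MXD group, while the remaining antagonist *Mnt* was lower. The fourth MXD transcript, *Mxd3*, also passed, but in only 9 of 19 alternatives, and not with a replicate block (adjusted p = 0.0638). By limma on log2(normalized count + 1), with p adjusted over the 14419 genes tested and a threshold of 0.05, 8 members passed, of which 4 rose and 4 fell, and 2 (*Mlxip* and *Mga*) did not. Calls were frequent in this comparison, at 49.2% of all genes, 24.5% for a rise and 24.7% for a fall, against 40.0% of the members in each direction. Melatonin and vehicle samples did not overlap in 9 of the 10 members, against 60.4% of all genes. Of these, 5 lay wholly above vehicle (30.0% of all genes) and 4 wholly below it (30.3%). The largest rises were those of *Mxi1* and *Mxd1* and the largest fall was that of *Mnt*. In sorted cells measured in bulk, fewer cells that express a gene and less RNA of it per cell cannot be told apart.

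**Figure D1:**
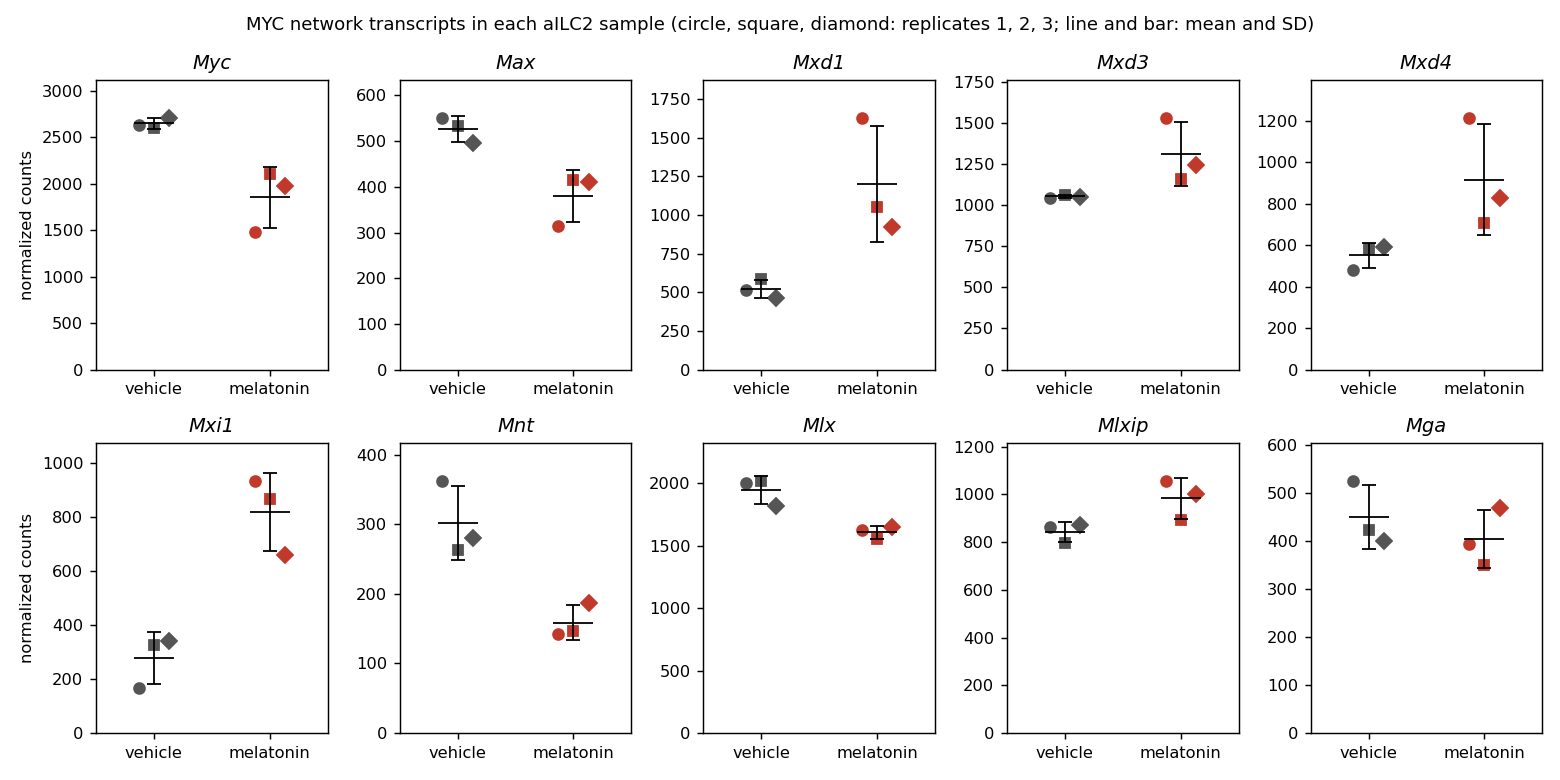
Normalized counts (vertical axis, from 0) of the 10 members in each of the 3 vehicle and 3 melatonin samples, with the mean and SD of each group. The groups are separate in every panel but that of *Mga*, and melatonin replicate 1 (circle) is farthest from vehicle in *Myc*, *Max*, *Mxd1*, *Mxd3*, *Mxd4*, *Mxi1*, *Mnt* and *Mlxip*.

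*Myc* (chr15:61857227-61862223 in GRCm39, plus strand) had a mean above that of 86.0% of the tested genes. It was at 2636, 2600.0 and 2711 normalized counts in vehicle replicates 1, 2 and 3 and at 1476, 2106 and 1972 in melatonin replicates 1, 2 and 3. The melatonin samples were all lower than the vehicle samples, and replicate 1 was the lowest. The log2 fold change was −0.53 ± 0.13 (SE, adjusted p = 0.00800), or 1.43-fold lower by the group means. It passed the threshold of 0.05 in 19 of 19 alternative analyses (other filters, scalings, models and samples left out), between −0.63 and −0.38, the smallest change being the one without melatonin replicate 1. The spread was wider in melatonin, with a coefficient of variation of 17.9% against 2.14% in vehicle.

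*Max* (chr12:76984043-77009009, minus strand), the partner that MYC and its antagonists share, was at 552, 534 and 495 normalized counts in vehicle and 315, 414 and 410.1 in melatonin. Melatonin replicate 1 was again the lowest sample, and the groups did not overlap. *Max* changed by −0.48 ± 0.13 (SE, adjusted p = 0.0149) on the log2 scale. Without vehicle replicate 1 or 2 the change was −0.45 (adjusted p = 0.0553) and −0.47 (adjusted p = 0.0543), which did not pass.

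Since the network acts at E-boxes, the promoters of its own members were searched for the palindromic letters CACGTG, which read the same on both strands, from 250 bases before to 50 bases after the annotated start (RefSeq, GRCm38.p6). The table matched 9 of the 10 members, all but *Myc*, and 4 of these 9 held the letters, against 8.09% of all 27025 genes with a promoter and 11.8% of the 9840 of them that were tested. The 4 stretches are shown because they are where these letters occur in the members, with the E-box in capitals. They lie at chr12:76962234-76962263 (minus strand, across the start of *Max*), chr5:34187894-34187959 (minus strand, 219 bases before the start of *Mxd4*), chr11:74830771-74830836 (plus strand, 123 bases before the start of *Mnt*) and chr11:101087220-101087285 (plus strand, 40 bases before the start of *Mlx*).
Max: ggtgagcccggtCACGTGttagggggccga
Mxd4: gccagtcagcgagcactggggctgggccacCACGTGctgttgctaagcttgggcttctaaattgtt
Mnt: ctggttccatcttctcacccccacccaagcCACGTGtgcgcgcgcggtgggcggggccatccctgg
Mlx: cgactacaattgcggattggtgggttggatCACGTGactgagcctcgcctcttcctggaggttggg
*Max*, *Mnt* and *Mlx* fell in melatonin, while *Mxd4* rose. A match is a description of the sequence and not evidence of binding. The related letters CACGCG (either strand), another sequence that MYC and MAX can bind, were found in the promoter of *Mga* alone among the members, against 10.5% of all genes with a promoter and 20.0% of those tested.

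Among the antagonists, *Mxi1* (chr19:53298852-53364241, plus strand), which encodes the MAX partner also named MXD2, had the largest rise. It was at 167, 324 and 338 normalized counts in vehicle and 933, 865 and 657 in melatonin. The lowest melatonin sample, replicate 3, was above the highest vehicle sample. The log2 fold change was 1.61 ± 0.26 (SE, adjusted p = 0.00122), or 2.96-fold by the group means. Vehicle replicate 1 was the lowest sample of its group, and without it the change was 1.29.

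*Mxd1* (chr6:86624024-86646218, minus strand), the founding MXD repressor and a gene known to be induced during differentiation, was at 516, 584 and 463 normalized counts in vehicle. In melatonin it reached 1629, 1051 and 924. All melatonin samples were above all vehicle samples, with replicate 1 the highest by a wide margin. The change was 1.17 ± 0.20 (SE, adjusted p = 0.00151) on the log2 scale, and it was 0.93 without melatonin replicate 1. Both *Mxi1* and *Mxd1* passed the threshold in 19 of 19 alternatives. As fitted here they exceeded a log2 fold change of 1, as did 6.01% of all genes in that direction. *Mxd1* was under 1 after the transcript length correction (0.99) and without melatonin replicate 1 (0.93).

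*Mxd4* (chr5:34331227-34345240, minus strand), an MXD repressor known from slowly dividing cells, showed a smaller rise. Its values were 481, 582 and 592 normalized counts in vehicle and 1217, 707 and 828 in melatonin. The groups were separate, although melatonin replicate 2 lay nearer to vehicle than to melatonin replicate 1. The log2 fold change was 0.70 ± 0.19 (SE, adjusted p = 0.0138). It was 0.48 without melatonin replicate 1, and its adjusted p was 0.0511 when the variance trend was left out of the model.

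*Mxd3* (chr13:55472981-55477908, minus strand), the MXD member known to be expressed in dividing cells, was nearly the same in the vehicle samples, at 1044, 1064 and 1049 normalized counts. It was at 1532, 1157 and 1245 in melatonin. The groups did not overlap, and the rise of 0.31 ± 0.11 (SE, adjusted p = 0.0447) on the log2 scale was the least certain of the 8 calls. It passed in 9 of 19 alternatives and in 1 of 6 analyses with a sample left out (that without melatonin replicate 2), between 0.19 and 0.39, and its adjusted p was 0.0638 with the replicate number as a block. *Mxd3* shares 876 of its 2760 exon bases with *Prelid1* on the other strand, which fell from a mean of 14068 to 8779 normalized counts, and the library kit named in the methods does not record strand, so reads from the shared bases cannot be told apart.

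*Mnt* (chr11:74721338-74736836, plus strand), the broadly expressed MAX partner that opposes MYC in cycling and resting cells alike, moved the other way from the MXD genes. It was at 362, 263 and 280.1 normalized counts in vehicle and 142, 146 and 187 in melatonin. No melatonin sample reached the lowest vehicle sample. The log2 fold change was −0.92 ± 0.17 (SE, adjusted p = 0.00265), or 1.91-fold lower, and it passed in 19 of 19 alternatives, between −1.10 and −0.78. As fitted here, *Mnt*, like *Myc*, *Max* and *Mlx*, was short of a log2 fold change of −1, which 9.65% of all genes reached, but *Mnt* passed −1 after the transcript length correction (−1.10), without melatonin replicate 3 (−1.05) and without vehicle replicate 2 (−1.01). Vehicle replicate 1 was the highest sample, and the smallest change was the one without it.

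*Mlx* (chr11:100978080-100983043, plus strand), the MAX-like hub of the other arm of the network, was at 2001, 2020.3 and 1816 normalized counts in vehicle and 1625, 1552 and 1650.0 in melatonin. The groups were separate and the change was small, −0.27 ± 0.08 (SE, adjusted p = 0.0197) on the log2 scale. It did not pass without vehicle replicate 1, vehicle replicate 2 or melatonin replicate 2 (adjusted p = 0.0788, 0.0854 and 0.0602). *Mlx* shares 1109 of its 2137 exon bases with *Psmc3ip* on the other strand, at means of 613 in vehicle and 451 in melatonin, and this overlap cannot be resolved without strand.

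*Mlxip* (chr5:123532794-123595995, plus strand), which encodes the MLX partner that enters the nucleus when glucose 6-phosphate builds up, was at 862, 795 and 873 normalized counts in vehicle and 1057, 892 and 1001 in melatonin. The melatonin samples were all above the vehicle samples, the closest pair being 891.5 and 873. The log2 fold change of 0.22 ± 0.10 (SE, adjusted p = 0.0878) did not pass after adjustment, and the lower end of its unadjusted 95% interval of 0.00 to 0.44 was just above 0. It passed in 2 of 19 alternatives, without melatonin replicate 2 (0.29) and after a correction for GC content (0.32), and was smallest after a correction for transcript length (0.07, adjusted p = 0.577).

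*Mga* (chr2:119727694-119800062, plus strand), which encodes the largest protein of the network, a MAX partner that also carries a T-box domain, was at 526, 424 and 401 normalized counts in vehicle and 393, 349.6 and 468 in melatonin. It was the only member whose groups overlapped, since melatonin replicate 3 was above 2 vehicle samples. The log2 fold change was −0.16 ± 0.15 (SE, adjusted p = 0.406) with a 95% interval of −0.49 to 0.18, an interval that covers both a fall of 0.49 and a rise of 0.18.

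**Figure D2:**
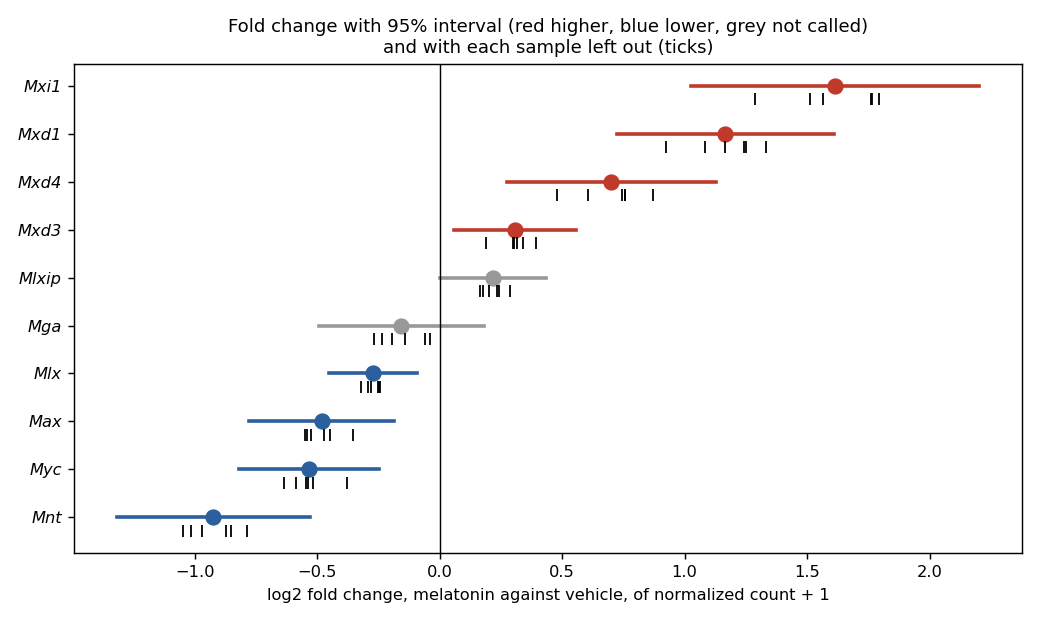
Log2 fold change of each member (horizontal axis, melatonin against vehicle) with its 95% interval from limma, and with each of the 6 samples left out in turn (ticks). *Mxi1*, *Mxd1*, *Mxd4* and *Mxd3* lie above 0, *Mnt*, *Myc*, *Max* and *Mlx* below 0, while the unadjusted interval of *Mlxip* starts at 0.00 and that of *Mga* includes 0.

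By the coefficient of variation, the melatonin samples differed among themselves more than the vehicle samples in 7 of the 10 members. In *Mga*, 1 of the 7, the values were nearly equal, at 14.9% in melatonin and 14.8% in vehicle. Replicate 1 was the sample farthest from vehicle in 7 of the 8 members that passed, all but *Mlx*. Neither count was made over all genes, so whether they are particular to the members was not tested. Across genes, replicate 1 also differed most from each vehicle sample, with a chi-square per degree of freedom of 144 to 174. For melatonin replicates 2 and 3 it was 81.3 to 127. This measure uses estimated counts and grows with depth. Replicate 1 had the most of the melatonin samples, at 19952559 against 17056267 and 18248582 in replicates 2 and 3. The part of depth in the difference was not tested. Replicate 1 was also the melatonin sample without *Xist*, and whether these facts are linked was not tested. With it left out, *Myc*, *Max*, *Mxd1*, *Mxd4*, *Mxi1*, *Mnt* and *Mlx* still passed, and the fold changes of *Max* and *Mxd3* were −0.35 and 0.19 on the log2 scale.

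To compare levels between genes, the normalized counts were divided by the median length of each gene's annotated transcripts in kilobases. In vehicle *Myc* stood first of the 10 members, at 1212 ± 25.9 normalized counts per kb (SD, n = 3). *Mlx* followed at 1064 ± 61.7 and *Mxd3* at 776 ± 7.59, and the samples of these neighbours did not overlap. *Max* was far below these at 264 ± 14.4. *Mga*, *Mlxip*, *Mxd4*, *Mxd1* and *Mxi1* lay between 185 and 106, where *Mlxip* and *Mxd4*, *Mxd4* and *Mxd1*, and *Mxd1* and *Mxi1* overlapped as neighbours. *Mnt* was the lowest at 62.8 ± 11.0, with 1 sample in the range of *Mxi1*.

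In melatonin *Mxd3* (967 ± 145), *Mlx* (879 ± 27.8) and *Myc* (847 ± 152) led in per-length level, and their samples overlapped. *Mxi1* moved from the ninth to the fourth place, at 314 ± 55.2, ahead of *Mxd1* at 258 ± 80.6 and *Mxd4* at 227 ± 65.9. *Max* was seventh at 189.9 ± 28.2, so that the per-length means of 4 antagonists were above that of their common partner, where in vehicle only *Mxd3* was, although samples of both *Mxd1* and *Mxd4* overlapped those of *Max*. *Mnt* stayed last at 33.0 ± 5.16. These places depend on the transcript length used. With the longest transcript of each gene, *Mga* had 32.3 per kb in vehicle and 28.9 in melatonin, the lowest of the 10 members in both groups, and *Mxi1* went from 52.8 to 156.

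**Figure D3:**
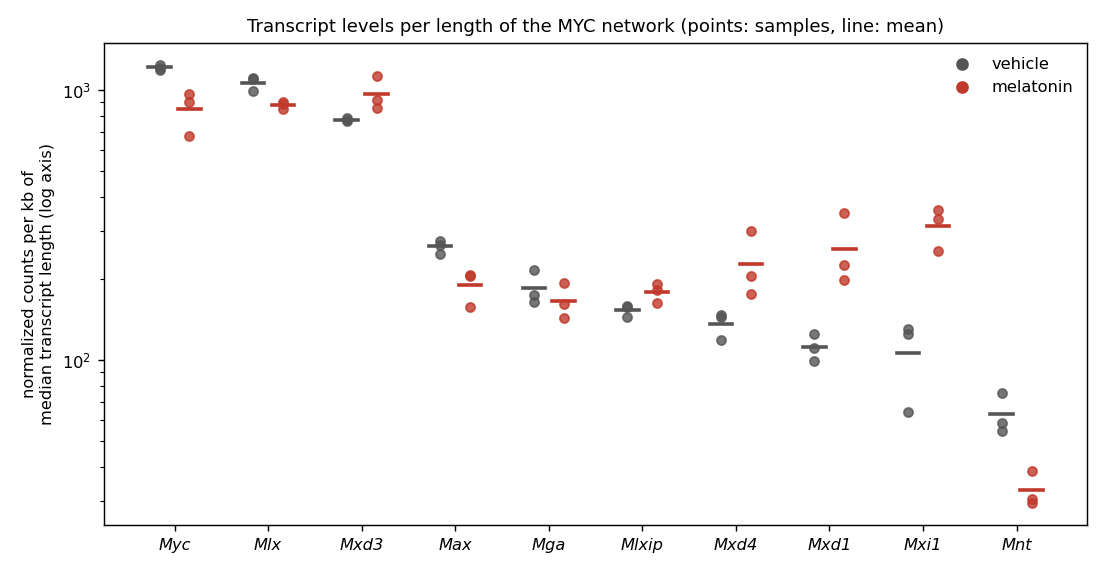
Normalized counts per kb of median transcript length (vertical log axis) of the 10 members in every sample, ordered by the vehicle mean, with lines at the group means. The means of *Mxi1* and *Mxd1* lie near 100 per kb in vehicle and above that of *Max* in melatonin, where samples of *Mxd1* and *Max* overlap, and *Mnt* is lowest in both groups.

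As a description of the balance between MYC and its antagonists at the RNA level, the per-length level of *Myc* was divided by the sum over *Mxd1*, *Mxd3*, *Mxd4*, *Mxi1* and *Mnt*. The ratio was 1.06, 0.96 and 1.03 in vehicle replicates 1, 2 and 3. In melatonin it was 0.31, 0.60 and 0.56. Without *Mxd3*, the uncertain member of this sum, the ratio was 3.27, 2.65 and 2.86 in vehicle and 0.65, 1.26 and 1.30 in melatonin. The 2 groups were thus separate by either sum, and no test was made of a score over members.

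Of the other genes of the extended network, *Mycn* and *Mlxipl* rose and *Mycl* and *Pvt1* fell. *Mycn*, the paralog of *Myc* best known from neural and early lymphoid cells, was at 46.7, 74.0 and 58.8 normalized counts in vehicle and 472, 338 and 296 in melatonin. It rose by 2.60 ± 0.23 (SE, adjusted p = 8.55e-05) on the log2 scale, against the fall of *Myc*, but stayed well below the count of *Myc* in every sample. *Mycl*, the third paralog, known in dendritic cells, went from 203, 288 and 292 to 5.60, 0 and 7.04. Its fitted change of −6.10 ± 0.70 (SE, adjusted p = 0.000262) rests on a handful of counts in melatonin and ranged from −7.33 to −4.27 with the pseudocount. *Itgax*, a dendritic and myeloid marker that encodes CD11c, one of the lineage antigens the sort was set to remove, fell as well, from 132, 113 and 106 normalized counts to 1.87, 33.9 and 45.2, and its part in the fall of *Mycl* was not tested.

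*Mlxipl*, which encodes the carbohydrate response factor of liver and fat, was at 2.80, 5.62 and 3.15 normalized counts in vehicle and 16.8, 19.7 and 22.1 in melatonin. It was low in all samples, and its log2 fold change of 2.12 ± 0.43 (SE, adjusted p = 0.00404) was 1.09 with a pseudocount of 10. *Pvt1*, the long noncoding RNA whose gene starts 26416 bases after the end of *Myc* on chromosome 15, was at 83.1, 98.4 and 102 in vehicle and 69.1, 50.3 and 45.2 in melatonin. Like *Myc* it was lower, with a log2 fold change of −0.79 ± 0.22 (SE, adjusted p = 0.0177), and did not pass in 4 of 18 alternatives (without vehicle replicate 2, vehicle replicate 3 or melatonin replicate 2, between −0.76 and −0.73, and after the transcript length correction, −0.63).

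The genes that the network regulates were then described by lists drawn from general knowledge of the pathway, given by counts and medians beside those of all tested genes, whose median log2 fold change was −0.00 with quartiles of −0.50 and 0.41 and of which 24.5% rose and 24.7% fell. Of 56 tested growth genes that MYC activates, mostly for ribosome assembly and nucleolar function, 48 fell, 1 rose and 7 did not pass, with a median of −0.59. The share that fell was 85.7%, against 24.7% of all genes. In 50 of them the melatonin samples all lay under the lowest vehicle sample, 89.3% against 30.3% of all genes. *Utp20*, a component of the small ribosomal subunit processome, was at 562, 546 and 592 normalized counts in vehicle and 132, 158 and 281 in melatonin (log2 fold change −1.64 ± 0.24 SE, adjusted p = 0.000832). *Pa2g4*, a nucleolar growth regulator, went from 3469.5, 3403 and 3350.0 to 1017, 1347 and 1509 (log2 fold change −1.42 ± 0.13 SE, adjusted p = 0.000107). The gene that rose was *Sord*, the sorbitol dehydrogenase of the polyol pathway, from 145, 189 and 135 to 945, 635 and 674 (log2 fold change 2.25 ± 0.19 SE, adjusted p = 6.42e-05).

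Of 24 classic E-box targets of MYC, 15 fell (62.5%), 3 rose (12.5%) and 6 did not pass, with a median log2 fold change of −0.60. *Cad*, which starts pyrimidine synthesis, was at 2946, 2982 and 3291 normalized counts in vehicle and 957, 1285 and 1418 in melatonin, a change of −1.35 ± 0.14 (SE, adjusted p = 0.000159). *Fbl*, the methyltransferase fibrillarin of the nucleolus, went from 1513, 1573 and 1588 to 514, 789 and 799.9, a change of −1.18 ± 0.16 (SE, adjusted p = 0.000548). The falls of *Odc1*, the rate-limiting enzyme of polyamine synthesis, of *Ncl*, which encodes nucleolin, and of *Cdk4*, a kinase of G1 phase, were −0.84, −0.73 and −0.55 on the log2 scale. *E2f1*, an S phase transcription factor, moved the other way, from 707, 1348 and 1833 to 3674, 3085 and 2221 (log2 fold change 1.28 ± 0.31 SE, adjusted p = 0.00932), and was 0.90 without vehicle replicate 1. *Slc3a2* also rose, as did *Ccnd2*, which passed in 5 of 6 analyses with a sample left out. The E-box letters were present in the promoters of 14 of 51 growth targets and 5 of 20 classic targets with an entry, beside the share of all genes given above.

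Genes that MYC is known to repress showed the opposite balance, with 10 of 17 tested genes higher (58.8%), 1 lower (5.88%) and 6 not passing, and a median log2 fold change of 0.57. *Sesn1*, a stress-induced inhibitor of mTORC1, was at 765, 740.2 and 788 normalized counts in vehicle and 2308, 2191 and 1928 in melatonin (log2 fold change 1.48 ± 0.09 SE, adjusted p = 2.09e-05). The antiproliferative genes *Btg2* and *Btg1* changed by 1.46 ± 0.21 (SE, adjusted p = 0.000646) and by 0.97 ± 0.11 (SE, adjusted p = 0.000256) on the log2 scale. *Cdkn1b*, which encodes the cell cycle inhibitor p27, rose from 124, 141 and 106 to 173, 223 and 179.9, by 0.63 ± 0.17 (SE, adjusted p = 0.0160). It did not pass without vehicle replicate 3 (0.52, adjusted p = 0.0605) or melatonin replicate 2 (0.52, adjusted p = 0.0581). *Cdkn1a*, which encodes p21, was at 6502, 6737 and 6973 in vehicle and 6836, 3944 and 4081 in melatonin and did not pass (log2 fold change −0.49 ± 0.18 SE, adjusted p = 0.0532), its melatonin replicate 1 lying within the vehicle range. Without that sample it was lower and passed (−0.75, adjusted p = 5.73e-05), against the direction of the list, as it also did with a pseudocount of 10, upper quartile scaling, sample weights or voom.

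Of 12 tested targets of MLX with MLXIP or MLXIPL, 7 fell (58.3%), 2 rose (16.7%) and 3 did not pass, with a median log2 fold change of −0.56. The fatty acid synthesis genes *Elovl6* and *Acaca* fell by 1.43 and 1.10 on the log2 scale, and *Hk2*, the inducible hexokinase, fell by 1.02. *Acly*, which supplies the acetyl-CoA for fatty acid synthesis, rose by 0.43, as did *Klf10*, a transcriptional repressor, by 0.44. The desaturase gene *Scd2* did not pass (0.49), at 3144, 3078 and 2574 normalized counts in vehicle and 2200, 5583 and 5598 in melatonin. Its melatonin replicate 1 lay below vehicle and replicates 2 and 3 above it, and it passed in 1 of 6 analyses with a sample left out. *Txnip*, the classic MondoA target and an inhibitor of glucose uptake, was at 2065, 1874 and 2029.8 normalized counts in vehicle and 1941, 974 and 1208 in melatonin. Melatonin replicate 1 was within the vehicle range while replicates 2 and 3 were below it, and the change of −0.59 ± 0.21 (SE, adjusted p = 0.0431) passed in only 1 of 6 analyses with a sample left out, the one without melatonin replicate 1. It was −0.38 without melatonin replicate 2. *Arrdc4*, another MondoA target of the same arrestin family, went from 243, 233 and 264 to 192, 127 and 102 (log2 fold change −0.86 ± 0.22 SE, adjusted p = 0.0118).

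**Figure D4:**
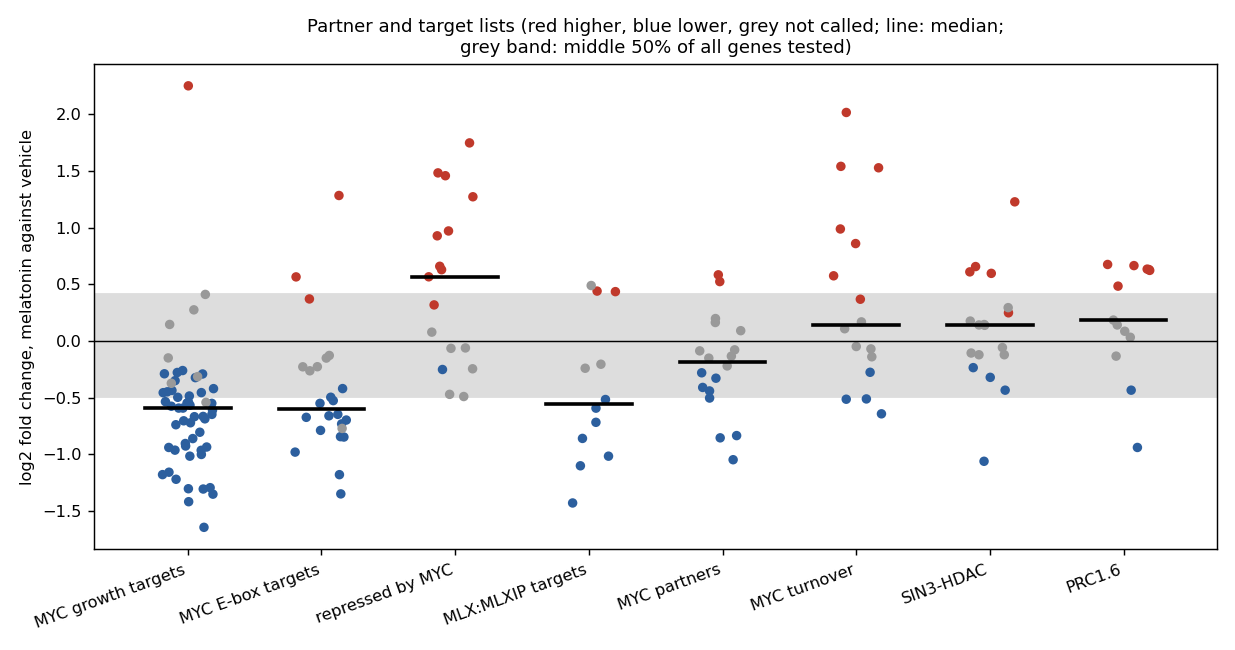
Log2 fold change (vertical axis, melatonin against vehicle) of every tested gene in 8 lists of partners and targets of the network, with the list median (black line) and the middle 50% of all tested genes (grey band, −0.50 to 0.41). The medians of the growth, classic E-box and MLX:MLXIP targets lie below the band, and that of the genes repressed by MYC lies above it. The band shows the spread of single genes and not of list medians, so these positions are a description and not a test.

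Of 20 proliferation genes, 10 fell (50%), 2 rose (10.0%) and 8 did not pass, with a median log2 fold change of −0.23. The list was mixed, and the 2 that rose were *E2f1*, given above, and *Rrm2* (log2 fold change 0.39 ± 0.09 SE, adjusted p = 0.00686). *Pcna*, the sliding clamp of replication, fell from 6618, 6572 and 6205 to 3651, 3663 and 3849 normalized counts (log2 fold change −0.80 ± 0.07 SE, adjusted p = 8.55e-05). The mitotic activator *Cdc20* fell by 0.54 on the log2 scale. *Mki67*, the common marker of cycling cells, was at 6463, 5059.5 and 5417 in vehicle and 4170.3, 3931 and 4877 in melatonin (log2 fold change −0.38 ± 0.11 SE, adjusted p = 0.0222). It did not pass without vehicle replicate 1 (−0.28, adjusted p = 0.0856) or melatonin replicate 2 (−0.32, adjusted p = 0.0779).

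Of 18 genes for proteins that work with MYC on chromatin, 8 fell (44.4%), 2 rose (11.1%) and 8 did not pass, with a median log2 fold change of −0.19. Among those that fell were the paired ATPases of the TIP60 complex, *Ruvbl2* going from 2992, 3008 and 3065 to 1449.8, 1464 and 1468 normalized counts (log2 fold change −1.05 ± 0.07 SE, adjusted p = 2.53e-05) and *Ruvbl1* changing by −0.84 ± 0.10 (SE, adjusted p = 0.000302). *Hcfc1*, a cofactor that binds MYC, changed by −0.86 ± 0.14 (SE, adjusted p = 0.00114) on the log2 scale and lies on chromosome X, so its values can also differ with the sex of the donors.

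Among 16 enzymes and adaptors that set the stability of the MYC protein, 7 rose (43.8%, against 24.5% of all genes), 4 fell (25%, against 24.7%) and 5 did not pass, with a median log2 fold change of 0.14. *Fbxw7*, the substrate receptor that marks phosphorylated MYC for degradation, was at 229.6, 241 and 233 normalized counts in vehicle and 490.2, 482 and 427 in melatonin, a rise of 0.99 ± 0.11 (SE, adjusted p = 0.000252). *Usp28*, a deubiquitinase that counteracts FBXW7, went from 82.1, 56.2 and 123 to 453, 318 and 267, a rise of 2.01 ± 0.29 (SE, adjusted p = 0.000750). *Axin1*, a scaffold for MYC dephosphorylation and turnover, and *Ppp2r5a*, a subunit of the phosphatase PP2A, rose by 1.54 ± 0.36 (SE, adjusted p = 0.00742) and 1.53 ± 0.25 (SE, adjusted p = 0.00133). *Skp2*, the other well-known MYC ubiquitin ligase, was at 403, 386 and 346 in vehicle and 403, 425 and 393 in melatonin and did not pass (log2 fold change 0.11 ± 0.11 SE, adjusted p = 0.437). MYC protein was not measured in these samples.

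Of 18 corepressor genes that work with MXD proteins (the SIN3 and histone deacetylase complexes and their associates), 5 rose, 4 fell and 9 did not pass, shares of 27.8% and 22.2% near the 24.5% and 24.7% of all genes, with a median log2 fold change of 0.14. *Sin3a*, which encodes the scaffold that binds MXD proteins, was at 1074, 990.4 and 1041 normalized counts in vehicle and 1172, 1064 and 1278 in melatonin and did not pass, with a log2 fold change of 0.17 and a 95% interval of −0.04 to 0.39. Its paralog *Sin3b* fell from 3188, 3363 and 3206 to 2682, 2445 and 2685 (log2 fold change −0.32 ± 0.07 SE, adjusted p = 0.00743). *Suds3* and *Ing2*, subunits of the SIN3 complex, rose by 1.23 and 0.66 on the log2 scale.

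For the Polycomb complex that MGA scaffolds (PRC1.6), 6 of 13 genes rose (46.2%), 2 fell (15.4%) and 5 did not pass, with a median log2 fold change of 0.18, although *Mga* itself did not pass. *E2f6*, which guides the complex to DNA, was at 1497, 1642 and 1481 normalized counts in vehicle and 2542, 2447 and 2167 in melatonin (log2 fold change 0.63 ± 0.09 SE, adjusted p = 0.000664), and its dimer partner *Tfdp2* rose by 0.66 ± 0.12 (SE, adjusted p = 0.00185). *Rybp*, a stimulating subunit of PRC1, rose by 0.67 ± 0.15 (SE, adjusted p = 0.00614), while *Cbx3*, the heterochromatin protein HP1γ, fell by 0.94 on the log2 scale and is also on the growth list. The subunits particular to the complex, *Pcgf6* and *L3mbtl2*, were at 502, 409 and 516 and at 1672, 1601 and 1688 in vehicle, and at 432, 539 and 543 and 1838, 1958 and 1839.6 in melatonin. Neither passed, with log2 fold changes of 0.09 ± 0.14 (SE, adjusted p = 0.629) and 0.18 ± 0.07 (SE, adjusted p = 0.0680), although *L3mbtl2* passed without melatonin replicate 1 (0.20, adjusted p = 0.0437). Of 16 genes listed as germline targets of the complex, 7 had a deposited value and 4 passed the filter on low values. *Tdrkh* and *Stag3* were at 649.6, 752 and 556 and at 107, 134 and 122 normalized counts in vehicle. Their means over all samples lay above those of 58.9% and 33.0% of the tested genes. Those 2 and *Syce1* did not pass the test, with log2 fold changes of −0.09, 0.11 and −0.75. *Slc25a31*, a testis ADP/ATP carrier named after its values were seen, was at 0 in all vehicle samples and at 4.67, 18.6 and 13.1 normalized counts in melatonin, and it passed the filter only through melatonin.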

How the data were processed

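Per the labels and methods, reads were trimmed in Partek Flow 12.9.0, aligned by the authors with STAR 2.7.8a to mm39 and assigned to Gencode M33 genes by an expectation-maximization step that can split a read among genes. They dropped genes with few counts (the smallest sum over the 6 samples is 10) and applied a median ratio scaling. The deposited signal is therefore an estimated count divided by a size factor per sample (normalized count). Only 65.8% of values were whole multiples of 1 read (tolerance 0.01), so no negative binomial model was used. The scale of log2(value + 1) understates fold changes of low genes.

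Genes with at least 10 in at least 1 sample (14419) were tested in limma 3.58.1 (R 4.3.3; lmFit, eBayes with trend, treatment only), with Benjamini-Hochberg adjustment. An exact permutation test of 3 against 3 cannot go below a two-sided p of 0.1. On simulated data with a variation of 9.65%, 100 of 100 genes changed by 1 on the log2 scale were recovered. Of those changed by 0.5, 67 of 100 were recovered, and 7 of 13805 unchanged genes were called. The simulation changed few genes and gave every gene the same variation. In the data 49.2% of genes were called, and the coefficient of variation among members reached 34.4% (*Mxi1* in vehicle). The simulated rates therefore do not carry over to the data. Names, GRCm39 positions and lengths came from GENCODE M39 and promoters from RefSeq. Tables were handled with pandas 2.3.3 and figures drawn with matplotlib 3.10.9.

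Members and lists were chosen with earlier results of these data known, so none is independent evidence of direction. The lists also share genes, so their counts are not separate from each other. *Hk2* is on the growth and MLX lists, *Cdk4* on the growth and classic lists and *E2f1* on the classic and proliferation lists. The growth and proliferation lists share 2 genes. Named were all members, *Pvt1*, *Mycn*, *Mycl* and *Mlxipl*, the 3 called genes of each list with the largest change and a mean of at least 100, and a few others whatever their values (such as *Txnip*, *Cdkn1a*, *Fbxw7*, *Sin3a*, *E2f6* and *Mki67*). *Ccnd2*, *Slc3a2*, *Slc25a31*, *Tdrkh*, *Stag3*, *Syce1*, *Acly*, *Klf10*, *Scd2*, *Rrm2*, *Itgax*, *Epcam* and the ILC2 markers given singly were named after their values were seen. The fit was repeated with a pseudocount of 0.1 or 10, with no filter or a mean of at least 100, with total, quantile and upper quartile scaling, without the trend, with sample weights, with voom on the estimated counts, with a replicate block, without each sample, with corrections for length and GC content, and at stricter thresholds. Genes whose identifiers lie beyond the end of the table were not analysed here. A gene chosen by the naming rule is not reported here.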

Additional observations from a re-analysis of the deposited data

How the results depend on the processing

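The count of members that rose was 4 and went to 2 without the variance trend, 2 at an adjusted p under 0.01 and 2 when a change of 1 or more in log2 was also required. It was between 3 and 5 with a sample left out. The count of members that fell was 4, with 2 at an adjusted p under 0.01 and 0 at a size of 1 or more, and between 2 (without vehicle replicate 1 or 2) and 4 with a sample left out. At that size threshold, 2 classic targets and 11 growth targets were lower and 4 repressed genes were higher, and these 3 counts stayed within 1.5 times of their value in the other alternatives. Since the threshold on size removes smaller changes by construction, these counts fall with it.

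Of 1153 values of 55 named genes under the alternatives, 1071 kept their direction and side of the threshold, 69 no longer passed, 11 passed only there and 2 changed sign. The 2 were genes that did not pass at first, *Skp2* at −0.060 after the transcript length correction and *Pcgf6* at −0.021 without vehicle replicate 2, the lowest of its values with a sample left out, which reached 0.19. The cause was not tested. No alternative scaling moved the median of all genes by more than 0.1 on the log2 scale.

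Same-numbered samples of the groups did not deviate together (correlations of −0.05, 0.01 and −0.05), and differently numbered pairs lay between −0.06 and 0.11. With 3 samples a group, these correlations cannot tell whether same-numbered samples shared animals, a culture or a preparation. With the replicate number as a block, 3160 genes rose and 3278 fell, against 3529 and 3565. Of the members, 3 rose and 4 fell, *Mxd3* being the one lost (0.31, adjusted p = 0.0638 by limma).

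Depth limits *Mycl* in melatonin and *Mlxipl*, which rest on a few counts and whose fold changes vary with the pseudocount.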
